A study of Homo sapiens with 6 samples.

Results

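Mucin-type O-glycans are sugar chains built on serine and threonine of secreted and membrane proteins in the Golgi, and enzymes of 6 gene families that start, branch, lengthen, cap and sulfate glycan chains are described here. They were read in H441, an established human lung adenocarcinoma cell line, after lowering of the transcription factor ETS2. All genes were taken whose single annotated symbol starts with GALNT, CHST, ST3GAL, ST6GAL (ST6GALNAC included), GCNT or B3GNT followed by a digit. This gave 58 genes of 18417 measured: 17 GALNT, 15 CHST, 8 B3GNT, 8 ST6GAL or ST6GALNAC, 6 ST3GAL and 4 GCNT genes. Symbols chose the genes, and brightness chose the probe. For the 7 members with several probes the brightest over the 6 arrays stands for the gene, so that their levels are high by choice. The families were picked with earlier results of these data known, CHST4, ST3GAL1, GALNT5 and GALNT3 among them. The number of members that changed is therefore a description and no independent evidence.

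The study compared 2 groups of 3 arrays, each array from its own transfection according to the series' design text. Control cells received scrambled siRNA and the other cells siRNA against ETS2, both SMARTpool reagents from Dharmacon delivered with Lipofectamine RNAiMAX. Total RNA was isolated after 48 h. Both groups thus carry siRNA and transfection reagent, no untransfected cells were analysed here, and the design rests on 1 cell line and 1 siRNA reagent against ETS2. Levels are RMA values on the log2 scale, and a difference is ETS2 siRNA minus control on that scale. A gene is called changed at an adjusted p under 0.05 in limma, a linear model with variances shared across all genes, adjusted by Benjamini-Hochberg over all 18417 genes. A permutation of 3 arrays against 3 cannot give an exact p under 0.1, so the model across genes is the one test used.

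O-glycan synthesis begins when a polypeptide GalNAc-transferase of the GALNT family attaches N-acetylgalactosamine to the protein. Galactose or N-acetylglucosamine is then added to give the core structures, GCNT enzymes place branches, and B3GNT enzymes lengthen the chains. ST3GAL, ST6GAL and ST6GALNAC enzymes end chains with sialic acid, and CHST enzymes transfer sulfate to sugars of glycan chains, including chondroitin sulfate and keratan sulfate. In airway epithelium these steps shape secreted and membrane-bound mucins and the ligands of selectins. Some members act outside this route, on glycolipids, N-glycans or proteoglycans, and are described as such.

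ETS2 fell to 48.4% of its control level, with arrays at 9.79, 9.91 and 9.79 in control cells and 8.87, 8.70 and 8.78 after ETS2 siRNA (difference -1.05, SE 0.0565, limma adjusted p = 0.000254). All 8 epithelial markers fixed for the line lay above the background floor in both groups, a log2 value of 6.67 that is the 95th percentile of olfactory receptor genes. One of them, SFTPB, fell. Of the 14 measured markers of leukocytes, fibroblasts and endothelium, 0 changed in limma, against 4.91% of all genes. An unadjusted p under 0.05 was reached by 3 of the 14 and by 3408 of all 18417 genes. Of those 14, 7 exceeded the floor in 1 or both groups: CD14 and ITGAM of the leukocyte list, COL1A1, COL1A2, PDGFRB and LUM of the fibroblast list, and KDR of the endothelial list. The highest of these control means were 9.80 for KDR, 9.03 for LUM and 8.95 for COL1A1. The leukocyte markers PTPRC and CD3E, the fibroblast marker DCN and the endothelial markers PECAM1, CDH5, VWF and TEK lay below the floor in both groups. Over all genes, 904 changed, 420 higher and 484 lower. That split turned to 557 higher and 253 lower when arrays were centred on ribosomal protein genes.

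Of the 58 members, 6 changed after ETS2 siRNA, 5 higher and 1 lower. CHST4, ST3GAL1, GALNT5, GALNT3 and CHST3 rose, and ST3GAL5 fell. The call covered 4.91% of all genes in either direction, 2.28% higher and 2.63% lower, against 10.3% of the members, 8.62% higher and 1.72% lower. No enrichment was tested, since the families had been chosen with results known. The median difference of the members was 0.0415 against 0.003 over all genes, and 41 members had positive and 17 negative differences (70.7% positive, against 50.8% of all genes). Without control replicate 2 the median was 0.0233 with 34 positive, with array weights 0.0254 with 37, and centred on ribosomal protein genes 0.0783 with 46, where the median of all genes was 0.04. A difference of at least 0.2 in size was reached by 7 members (12.1%) and by 6.16% of all genes. Arrays of the groups did not overlap for 15 of the 58 members, 11 higher and 4 lower. Such groups were found in 23.1% of all genes, 11.6% higher and 11.5% lower. In 46 members 1 or both group means exceeded the floor, and all 6 that changed were among them. The 12 dim members had differences from -0.08 to 0.14, and 0 of them changed in limma or reached an unadjusted p under 0.05. That unadjusted p was reached by 15 of the 58 members and by 3408 of all 18417 genes.

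**Figure D1:**
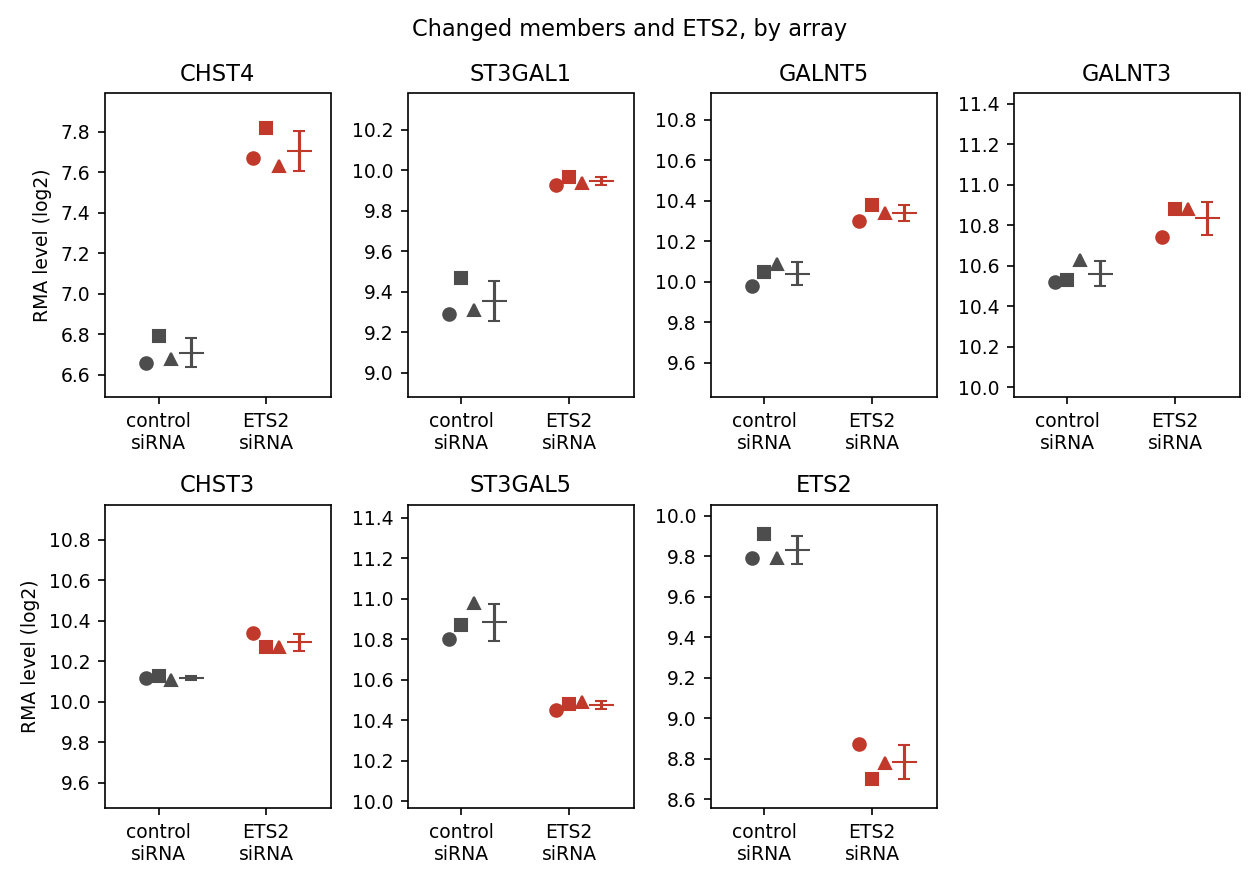
RMA level (log2, vertical axis, each panel spanning the same 1.5 log2 units) of the 6 changed members and ETS2 in control and ETS2 siRNA arrays. Circles, squares and triangles are replicates 1, 2 and 3, and the bars are mean and SD over 3 arrays. The groups are apart in every panel, by 0.84 for CHST4 and by 0.11 for GALNT3 between the nearest arrays.

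CHST4 had the largest difference of the families. It encodes a Golgi sulfotransferase that places sulfate on N-acetylglucosamine and is known for making sulfated ligands of L-selectin. Control arrays stood at 6.66, 6.79 and 6.68, and arrays after ETS2 siRNA at 7.67, 7.82 and 7.63. The control mean of 6.71 was thus at the background floor of 6.67, with 1 of 3 control arrays below it, while all ETS2 siRNA arrays lay clearly above. The difference was 1.00 (SE 0.0606, 95% interval 0.86 to 1.14, limma adjusted p = 0.000342), a fold of 2.00 in the measured values. Since the control level was not clearly above background, neither this fold nor its rank, 2nd among the measured rises of all 18417 genes, gives the size of the change in transcript level.

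ST3GAL1 caps the galactose of the core 1 disaccharide with sialic acid, a step that closes the chain to further branching. Its control arrays stood at 9.29, 9.47 and 9.31 and its ETS2 siRNA arrays at 9.93, 9.97 and 9.94. Between the nearest arrays of the 2 groups lay 0.46 log2 units. The difference was 0.59 (SE 0.0537, 95% interval 0.47 to 0.71, limma adjusted p = 0.0016), a fold of 1.51 and rank 13 among all rises.

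ST3GAL5, the synthase of the ganglioside GM3, transfers sialic acid to a glycolipid and not to mucin chains. It was the 1 member that fell. Control arrays stood at 10.80, 10.87 and 10.98 and ETS2 siRNA arrays at 10.45, 10.48 and 10.49, so that the groups did not overlap. The difference was -0.41 (SE 0.0514, 95% interval -0.53 to -0.29, limma adjusted p = 0.00592). The intervals of ST3GAL1 and ST3GAL5 lay on opposite sides of 0.

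GALNT5 and GALNT3 encode initiating GalNAc-transferases. GALNT3 is known for glycosylating the phosphate hormone FGF23, which protects it from cleavage. GALNT5 stood at 9.98, 10.05 and 10.09 in control cells and at 10.30, 10.38 and 10.34 after ETS2 siRNA, a difference of 0.30 (SE 0.0446, 95% interval 0.20 to 0.40, limma adjusted p = 0.0105). GALNT3 stood at 10.52, 10.53 and 10.63 and at 10.74, 10.88 and 10.88, a difference of 0.27 (SE 0.0538, 95% interval 0.15 to 0.40, limma adjusted p = 0.0283). For both genes every ETS2 siRNA array lay above every control array, by a fold of 1.23 and 1.21 between the means. GALNT6, a close relative of GALNT3, differed by 0.02 with an interval from -0.10 to 0.13.

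CHST3 places sulfate at the 6 position of N-acetylgalactosamine in chondroitin sulfate, a proteoglycan chain. Its control arrays were nearly the same, at 10.12, 10.13 and 10.11, and its ETS2 siRNA arrays stood at 10.34, 10.27 and 10.27. The difference was 0.17 (SE 0.0388, 95% interval 0.08 to 0.26, limma adjusted p = 0.0446), the smallest of the 6 and the closest to the threshold.

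CHST4, ST3GAL1 and ST3GAL5 were still called with any 1 of the 6 arrays left out, with adjusted p up to 0.00449, 0.0157 and 0.0367 in limma. GALNT5 lost its call without ETS2 siRNA replicate 2 (adjusted p = 0.0558 in limma) or ETS2 siRNA replicate 3 (0.0588). GALNT3 lost it without control replicate 1 (0.0958), control replicate 2 (0.069), ETS2 siRNA replicate 2 (0.115) or ETS2 siRNA replicate 3 (0.125). CHST3 was not called without any 1 of them, at 0.114, 0.0708 and 0.139 without control replicates 1, 2 and 3 and at 0.125, 0.122 and 0.125 without ETS2 siRNA replicates 1, 2 and 3. The size of its difference stayed between 0.15 and 0.18. With 5 arrays the count of changed members therefore fell to between 3 and 5, with 3 left without ETS2 siRNA replicate 2 or replicate 3.

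**Figure D2:**
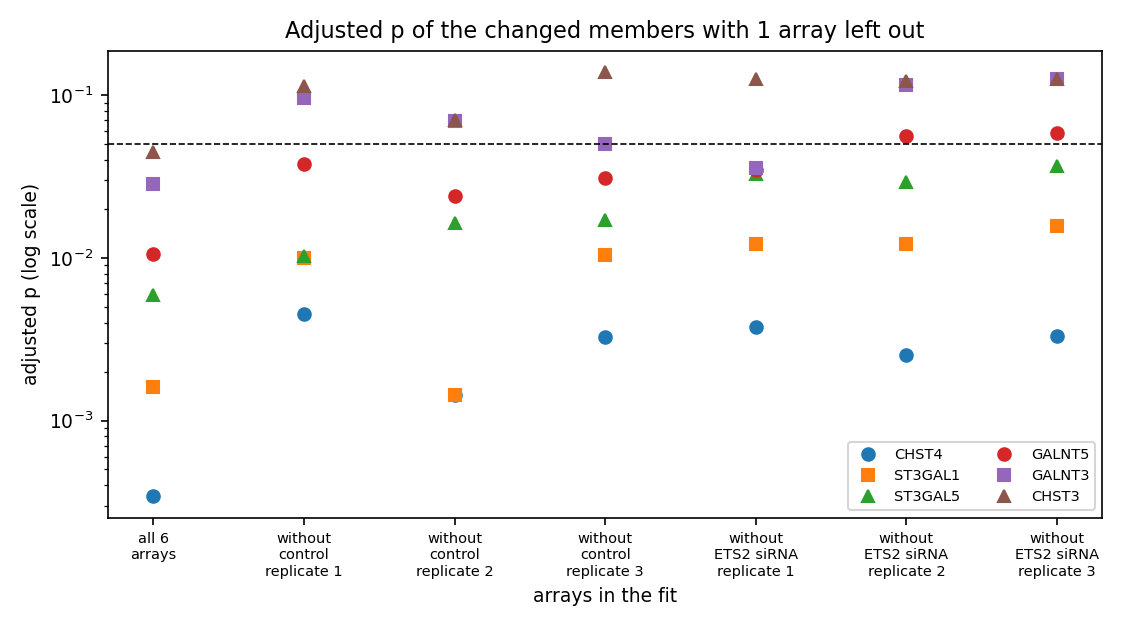
Adjusted p from limma (log axis) of the 6 changed members with all 6 arrays and with each array left out in turn (horizontal axis), the dashed line marking 0.05. CHST4, ST3GAL1 and ST3GAL5 stay under the line in every fit, GALNT5 crosses it without ETS2 siRNA replicate 2 or 3, and CHST3 lies above it in all 6 fits of 5 arrays.

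The lowered gene encodes an ETS factor, a family whose proteins bind DNA around the core GGAA. Windows around annotated starts are therefore printed for 4 of the 6 changed members, CHST3, CHST4, GALNT3 and ST3GAL5. Windows of ST3GAL1 and GALNT5 are not reported here. The RefSeq windows of GRCh38.p14 run 300 bases, from 250 before to 50 after a start, and 44 of the 58 members had 1 or more. They were searched on both strands for GGAA (TTCC on the printed strand), for GGAAG and for CCGGAAG, in which the shorter motifs are contained. GGAA was present in 93.1% of the 72 member windows and in 95.5% of all 35116 windows. GGAAG was present in 70.8% and 71.9%, and CCGGAAG in 5.56% (4 windows) and 10.3%. The members' shares were thus close to or below those of all starts. A match is a description of letters and not of a site. Each window is given 5′ to 3′ on the strand of the gene, with GGAA or TTCC in capitals.

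CHST4 has 2 windows, on the plus strand at chr16:71525870-71526169 and chr16:71526176-71526475, with 2 and 4 GGAA cores. Neither holds CCGGAAG, and GGAAG occurs in the second, 3 times. The GALNT3 window, on the minus strand at chr2:165794198-165794497, holds 3 cores, 2 of them as GGAAG. Of 3 CHST3 windows the one at chr10:71965091-71965390, on the plus strand, is shown. It alone among the windows of CHST3, CHST4, GALNT3 and ST3GAL5 holds CCGGAAG, on the opposite strand. It has 3 cores, and the other CHST3 windows have 4 and 6. ST3GAL5, the gene that fell, has 5 windows on the minus strand around starts in 2 separate places, and 1 from each place is shown. The one at chr2:85854122-85854421 holds 2 cores, 1 of them as GGAAG. The one at chr2:85888941-85889240 holds 1 core, the fewest of the 5, and the other 4 hold 2 each, 3 of them with GGAAG.
CHST4, first window: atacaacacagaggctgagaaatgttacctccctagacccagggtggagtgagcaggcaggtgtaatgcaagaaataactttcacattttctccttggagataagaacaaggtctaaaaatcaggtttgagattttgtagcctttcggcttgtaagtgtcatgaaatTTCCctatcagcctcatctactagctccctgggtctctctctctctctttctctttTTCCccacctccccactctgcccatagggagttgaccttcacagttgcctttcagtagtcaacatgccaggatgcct
CHST4, second window: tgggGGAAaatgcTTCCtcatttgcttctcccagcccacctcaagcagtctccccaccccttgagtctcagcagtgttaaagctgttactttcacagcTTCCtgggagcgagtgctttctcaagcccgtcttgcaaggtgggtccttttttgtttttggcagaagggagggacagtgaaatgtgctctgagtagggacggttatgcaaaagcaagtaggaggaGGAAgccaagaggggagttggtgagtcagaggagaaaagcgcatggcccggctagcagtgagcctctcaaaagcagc
GALNT3: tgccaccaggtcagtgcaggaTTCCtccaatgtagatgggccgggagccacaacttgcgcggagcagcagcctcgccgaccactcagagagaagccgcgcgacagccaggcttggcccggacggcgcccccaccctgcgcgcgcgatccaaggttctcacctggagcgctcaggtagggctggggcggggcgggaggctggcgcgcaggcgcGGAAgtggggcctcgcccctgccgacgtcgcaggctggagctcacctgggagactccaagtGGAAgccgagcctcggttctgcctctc
CHST3: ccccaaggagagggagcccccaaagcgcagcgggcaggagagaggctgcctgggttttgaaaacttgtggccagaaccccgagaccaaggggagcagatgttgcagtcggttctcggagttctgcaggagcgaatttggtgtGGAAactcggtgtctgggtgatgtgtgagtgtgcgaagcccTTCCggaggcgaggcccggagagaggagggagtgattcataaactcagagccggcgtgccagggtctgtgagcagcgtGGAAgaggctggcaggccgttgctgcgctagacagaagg
ST3GAL5, first window: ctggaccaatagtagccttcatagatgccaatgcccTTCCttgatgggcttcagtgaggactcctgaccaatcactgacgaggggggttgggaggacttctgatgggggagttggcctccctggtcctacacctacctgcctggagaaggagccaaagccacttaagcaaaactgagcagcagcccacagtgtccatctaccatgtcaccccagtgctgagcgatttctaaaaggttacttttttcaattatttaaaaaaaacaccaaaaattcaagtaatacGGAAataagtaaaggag
ST3GAL5, second window: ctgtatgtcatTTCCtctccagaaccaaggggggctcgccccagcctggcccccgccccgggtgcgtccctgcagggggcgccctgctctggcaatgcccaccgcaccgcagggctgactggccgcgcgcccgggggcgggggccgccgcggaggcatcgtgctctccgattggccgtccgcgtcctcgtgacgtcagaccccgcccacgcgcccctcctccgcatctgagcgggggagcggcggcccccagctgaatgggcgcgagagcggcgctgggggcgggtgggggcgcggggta

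**Figure D3:**
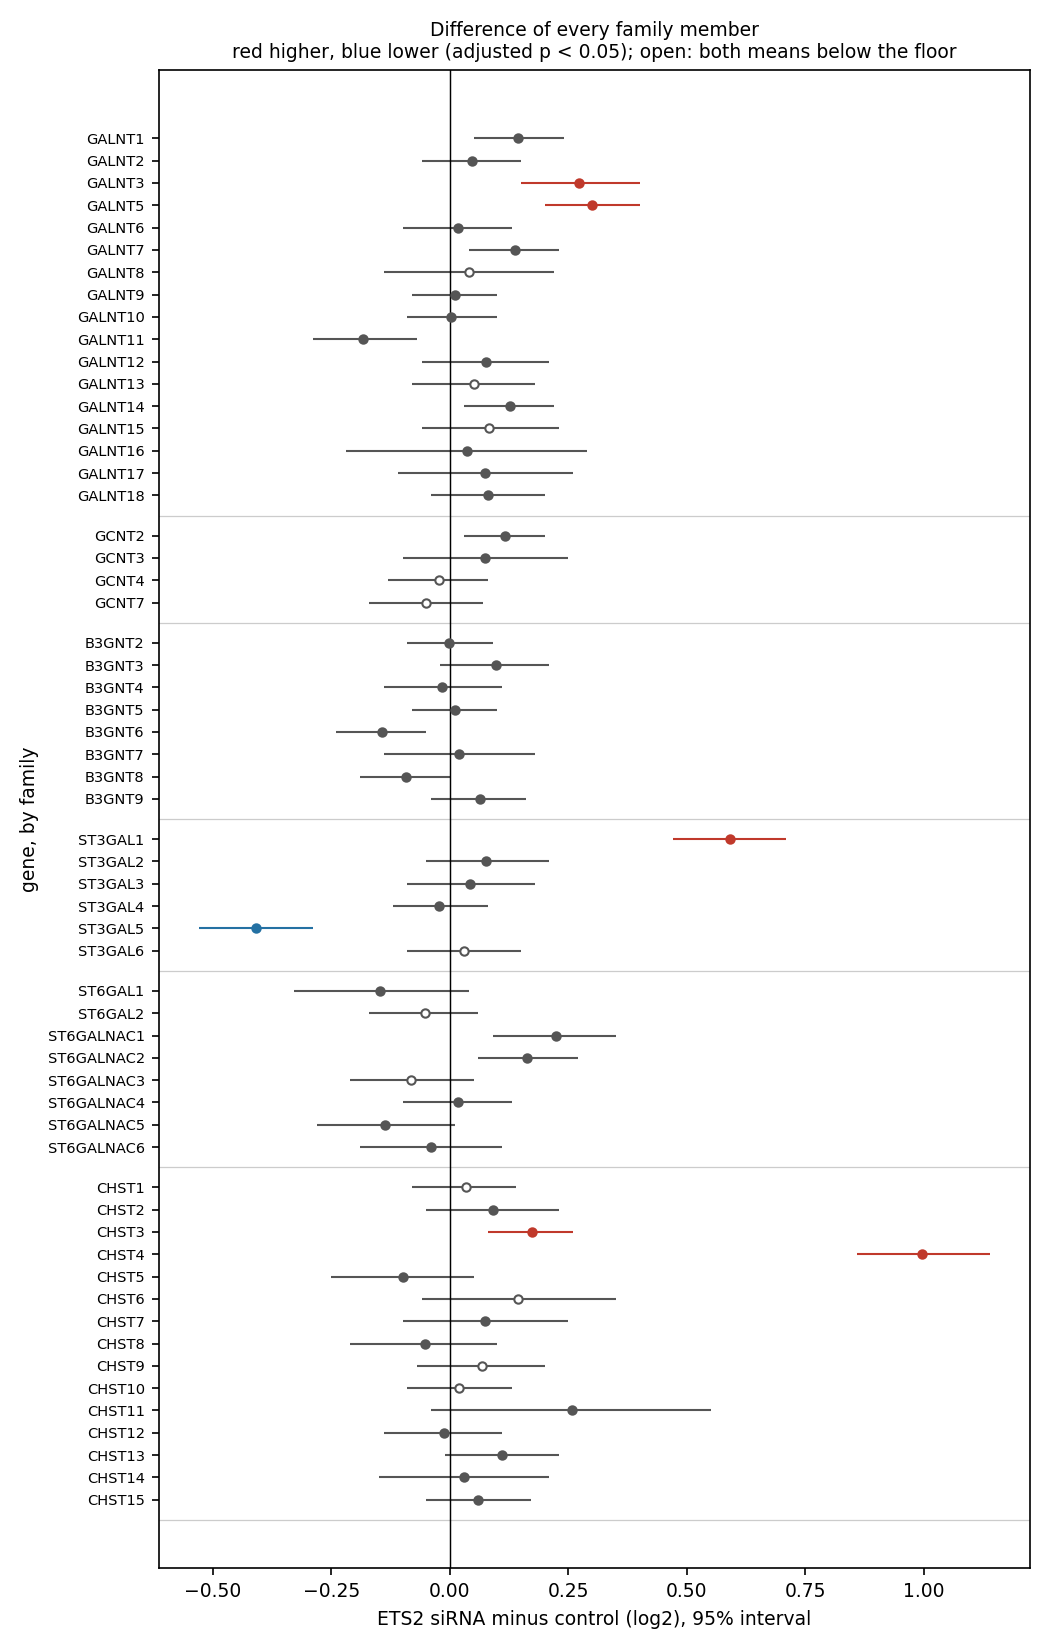
Difference of each of the 58 members (horizontal axis, ETS2 siRNA minus control, log2) with its 95% interval from limma, grouped by family. Red marks the 5 members called higher, blue the 1 called lower, grey those without a call, and open points the 12 whose group means both lie below the floor. CHST4 and ST3GAL1 stand to the right of all others, and 16 of the 17 GALNT points lie above 0 (15 after a further quantile normalisation, 14 with array weights).

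Among the 17 initiating GALNT enzymes, 2 rose (11.8%, against 2.28% of all genes) and 0 fell (against 2.63%). Differences were positive for 16 of them, for 15 after a further quantile normalisation and for 14 with array weights, with a median of 0.073 over the family. Without single arrays between 12 and 16 of the 17 remained positive, the lowest count without ETS2 siRNA replicate 1. Without a call, 3 further members, GALNT1, GALNT7 and GALNT14, had groups that did not overlap, as did 11.6% of all genes in the upward direction. GALNT1, a broadly expressed initiating enzyme, stood at 10.32, 10.33 and 10.37 in control cells and at 10.44, 10.49 and 10.52 after ETS2 siRNA (difference 0.14, limma adjusted p = 0.0909). GALNT7, which acts on peptides that already carry a sugar, stood at 11.61, 11.69 and 11.69 and at 11.77, 11.81 and 11.82 (0.14, limma adjusted p = 0.112).

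GALNT14, an enzyme known for modifying death receptors, stood at 9.60, 9.69 and 9.59 in control cells and at 9.76, 9.76 and 9.74 after ETS2 siRNA (0.13, limma adjusted p = 0.143). The 1 GALNT gene with a negative difference was GALNT11, an enzyme known for glycosylating NOTCH1. Its arrays were at 10.17, 10.21 and 10.08 in control cells and at 9.93, 10.02 and 9.96 after ETS2 siRNA, a difference of -0.18 that missed the threshold (95% interval -0.29 to -0.07, limma adjusted p = 0.0756). GALNT2, GALNT6, GALNT9, GALNT10, GALNT12, GALNT16, GALNT17 and GALNT18 had differences between 0.003 and 0.08, each with an interval that held 0. GALNT8, GALNT13 and GALNT15 lay below the floor in both groups.

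GALNT4 shares its probe with a read-through transcript, POC1B-GALNT4, and is not among the members for that reason. That probe read 8.96, 9.08 and 9.11 in control cells and 9.23, 9.18 and 9.34 after ETS2 siRNA. The groups did not overlap, and the difference of 0.20 was not called when all probes were tested (limma adjusted p = 0.211). Which of the genes it reads cannot be told apart.

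The branching GCNT genes had 0 changed members of 4 in limma, with 1 at an unadjusted p under 0.05. Of all 18417 genes, 4.91% changed and 3408 had such a p. GCNT2, which makes the branches of the blood group I antigen, stood at 8.45, 8.41 and 8.45 in control cells and at 8.57, 8.57 and 8.52 after ETS2 siRNA. These groups did not overlap, and the difference of 0.12 was not called (limma adjusted p = 0.139). GCNT3, the branching enzyme of mucin-secreting tissues, stood near the floor at 7.01, 6.81 and 6.83 and at 6.95, 6.83 and 7.09, and these groups overlapped (0.07, 95% interval -0.10 to 0.25). Its difference ranged from 0.0067 without ETS2 siRNA replicate 3 to 0.14 without control replicate 1 or ETS2 siRNA replicate 2. GCNT4 and GCNT7, which RefSeq lists as a transcribed pseudogene, were below the floor. GCNT1 was not analysed here.

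None of the 8 chain-lengthening B3GNT genes changed in limma, with 2 at an unadjusted p under 0.05, and all 8 lay above the floor. Over all 18417 genes, 4.91% changed and 3408 reached that unadjusted p. B3GNT6, which makes the core 3 structure of O-glycans, came closest, with arrays at 10.75, 10.72 and 10.75 in control cells and 10.59, 10.65 and 10.55 after ETS2 siRNA. The groups did not overlap (difference -0.14, 95% interval -0.24 to -0.05, limma adjusted p = 0.0978). B3GNT8, a partner of B3GNT2 in making long lactosamine chains, read 7.33, 7.28 and 7.32 against 7.18, 7.26 and 7.21, also without overlap (-0.09, limma adjusted p = 0.262). B3GNT3, which lengthens core 1 chains, read 10.69, 10.77 and 10.67 against 10.87, 10.81 and 10.74 (0.10, limma adjusted p = 0.352).

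B3GNT9 read 7.98, 7.86 and 7.91 in control cells and 8.01, 7.97 and 7.96 after ETS2 siRNA (0.06, limma adjusted p = 0.529). B3GNT2, B3GNT4, B3GNT5 and B3GNT7 had differences between -0.02 and 0.02. For the glycolipid enzyme B3GNT5 the interval ran from -0.08 to 0.10. Every B3GNT interval lay within a 1.2-fold change in either direction.

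In the ST3GAL family, ST3GAL1 and ST3GAL5 changed in opposite directions (33.3% of the family, against 4.91% of all genes). The other 4 members were not called in limma. An unadjusted p under 0.05 was reached by 0 of these 4 and by 3408 of all 18417 genes. ST3GAL2, which also acts on core 1 chains and on gangliosides, stood at 8.03, 8.13 and 8.06 in control cells and at 8.26, 8.09 and 8.10 after ETS2 siRNA (difference 0.08, 95% interval -0.05 to 0.21). ST3GAL3 read 7.78, 7.88 and 7.80 against 7.87, 7.96 and 7.76 (0.04), and ST3GAL4 8.23, 8.30 and 8.21 against 8.26, 8.24 and 8.17 (-0.02). The latter enzymes act mainly on lactosamine chains. The groups of all of these overlapped, and ST3GAL6 lay below the floor.

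Of the sialyltransferases that form the other linkage, ST6GAL and ST6GALNAC, 0 of 8 changed in limma, against 4.91% of all genes. An unadjusted p under 0.05 was reached by 2 of the 8 and by 3408 of all 18417 genes. The 2 were ST6GALNAC1 and ST6GALNAC2, which add sialic acid to the first sugar of O-glycans, the product of the former being the sialyl-Tn antigen. ST6GALNAC1 read 8.17, 8.30 and 8.30 in control cells and 8.50, 8.39 and 8.55 after ETS2 siRNA, without overlap (difference 0.22, 95% interval 0.09 to 0.35, limma adjusted p = 0.0694). ST6GALNAC2 read 9.14, 9.10 and 9.07 against 9.31, 9.29 and 9.20, again without overlap (0.16, 95% interval 0.06 to 0.27, limma adjusted p = 0.0854). The 2 probes of ST6GALNAC1 differed by 0.22 and 0.24, and those of ST6GALNAC2 held identical values.

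ST6GAL1, the main enzyme for this linkage on N-glycans, read 7.98, 8.17 and 7.83 in control cells and 7.86, 7.89 and 7.79 after ETS2 siRNA, and the groups overlapped (-0.15, 95% interval -0.33 to 0.04, limma adjusted p = 0.397). Its difference was -0.06 without control replicate 2, -0.23 without control replicate 3 and -0.07 with array weights. ST6GALNAC5, a ganglioside sialyltransferase, read 8.50, 8.67 and 8.57 against 8.45, 8.34 and 8.54 (-0.14, limma adjusted p = 0.308). ST6GALNAC4 and ST6GALNAC6 had differences of 0.02 and -0.04, and ST6GAL2 and ST6GALNAC3 lay below the floor. Of 8 other probes of members, 1 of them identical to the probe used, 0 were called in limma and 2 had an unadjusted p under 0.05. With all probes tested, 322 of the 18417 probes that stand for genes were called. The share of all probes at that unadjusted p was not counted.

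Of the 15 sulfotransferase genes of the CHST family, 2 rose (13.3%, against 2.28% of all genes) and 0 fell (against 2.63%). In both groups, 4 were below the floor. Among the enzymes that sulfate N-acetylglucosamine, the group of CHST4, CHST2 read 7.51, 7.33 and 7.53 in control cells and 7.59, 7.56 and 7.49 after ETS2 siRNA (0.09, 95% interval -0.05 to 0.23). CHST5 read 6.91, 6.93 and 6.79 against 6.76, 6.67 and 6.90 (-0.10, 95% interval -0.25 to 0.05), and CHST7 differed by 0.07 with an interval from -0.10 to 0.25. CHST6, the corneal keratan sulfate enzyme, lay below the floor at 6.50 and 6.64. The groups of these 4 relatives overlapped. In the measured values the lower bound of CHST4 (0.86) lay above the upper bound of each of them, the highest being 0.35. That highest bound is of CHST6, whose interval, below the floor, does not bound a change in transcript level. The means of CHST5, 6.88 and 6.78, were also close to the floor of 6.67. CHST4, CHST5 and CHST6 are related in sequence, and cross-hybridisation between their probes was not tested.

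Among the chondroitin and dermatan sulfate enzymes, CHST3 alone was called. CHST11, which sulfates the 4 position of chondroitin, had the widest interval of the families. It read 7.79, 7.95 and 7.48 in control cells and 8.20, 7.95 and 7.84 after ETS2 siRNA, and the groups overlapped (0.26, 95% interval -0.04 to 0.55, limma adjusted p = 0.342). The difference was 0.13 without control replicate 3 and 0.15 without ETS2 siRNA replicate 1. Its control SD of 0.239 was larger than the median control SD of 0.07 over the members. CHST13, with the same activity, read 7.71, 7.57 and 7.66 against 7.82, 7.68 and 7.77 (0.11, limma adjusted p = 0.332). CHST12, the dermatan enzyme CHST14 and CHST15, which adds a second sulfate to chondroitin, had differences of -0.01, 0.03 and 0.06. CHST8, which sulfates hormone glycans, stood at -0.05, and CHST1, CHST9 and CHST10 lay below the floor.

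A missed threshold does not show that a gene kept its level. Of the 52 members without a call, 44 had 95% intervals within a 1.2-fold change in either direction and 8 had intervals that reached beyond it. Those 8 were CHST6, CHST11, GALNT11, GALNT16, ST6GAL1, ST6GALNAC1, ST6GALNAC2 and ST6GALNAC5. Of the 52, 12 lay below the floor in both groups, CHST6 among them. For these 12 an interval of the measured values does not bound the change in transcript level. Just past the threshold stood CHST3 (adjusted p = 0.0446 in limma), and just short of it ST6GALNAC1 (0.0694), GALNT11 (0.0756), ST6GALNAC2 (0.0854), GALNT1 (0.0909) and B3GNT6 (0.0978). When only genes above the floor were tested, 10 members were called, the 6 above and GALNT1, GALNT11, ST6GALNAC1 and ST6GALNAC2. Of these 10, 8 were higher and 2 lower. That fit held 46 members among 13043 genes. It called 1397 of the 13043, where the fit of all 18417 genes called 904, so calls rose over all genes too.

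Other genes of the pathway were read from 5 lists, 123 genes of which 113 were measured. In all, 9 of the 113 changed (7.96%, against 4.91% of all genes), 5 higher and 4 lower, and the median difference was 0.01. Leaving out control replicate 2 gave the highest count of changed genes, 12, and leaving out ETS2 siRNA replicate 3 the lowest, 3. The lists were chosen with earlier results known. They were not tested as sets.

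**Figure D4:**
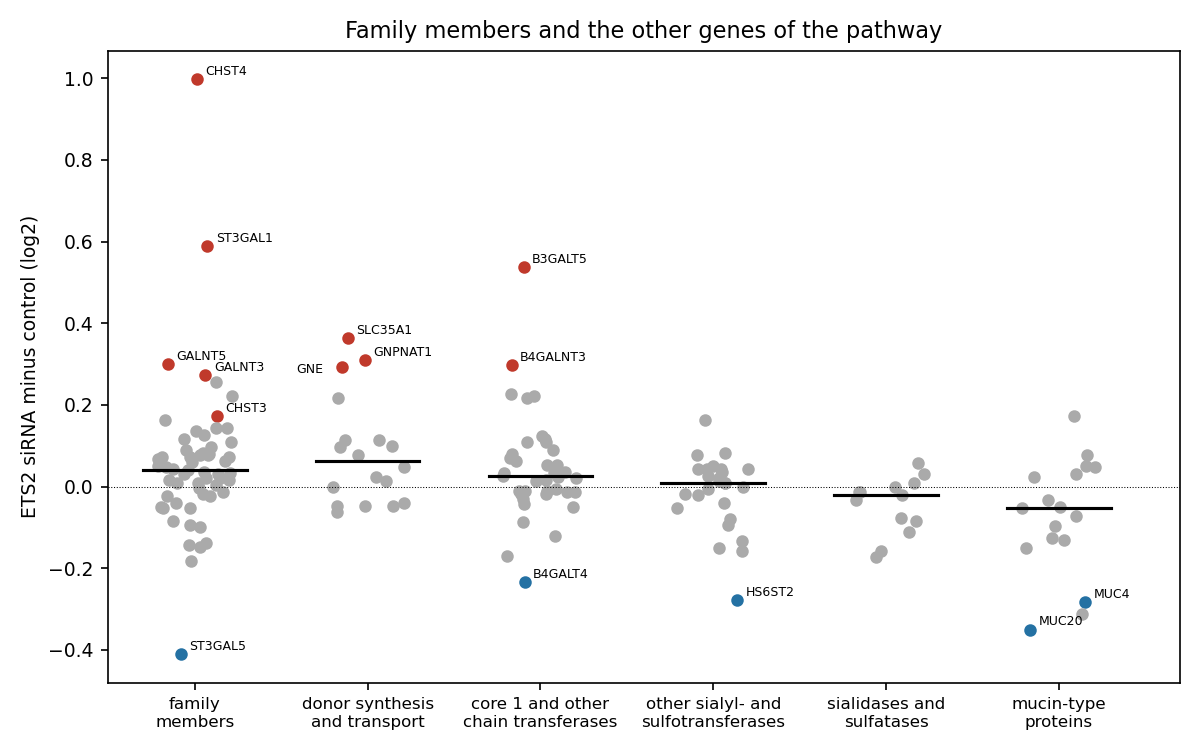
Difference (vertical axis, ETS2 siRNA minus control, log2) of the 58 family members and of the 5 lists of other pathway genes, 1 point a gene, with horizontal bars at the medians. Red points were called higher, blue lower and grey not called by limma. Called donor genes lie above 0, and called mucin-type proteins below it.

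Genes that make and carry the activated sugars and sulfate had 3 of 18 measured members higher (16.7%, against 2.28% of all genes) and 0 lower, with a median of 0.062. GNE, the enzyme that starts sialic acid synthesis, stood at 8.35, 8.59 and 8.44 in control cells and at 8.69, 8.78 and 8.79 after ETS2 siRNA (difference 0.29, SE 0.0643, limma adjusted p = 0.0415). SLC35A1, which carries activated sialic acid into the Golgi, stood at 8.63, 8.52 and 8.68 and at 8.98, 8.99 and 8.95 (0.36, SE 0.0489, limma adjusted p = 0.00727). GNPNAT1, an enzyme on the route to the activated form of N-acetylglucosamine, stood at 11.66, 11.61 and 11.60 and at 11.89, 11.95 and 11.96 (0.31, SE 0.0403, limma adjusted p = 0.00678). In none of these 3 did the groups overlap.

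The sulfate donor enzymes PAPSS1 and PAPSS2 differed by 0.05 and 0.02, with intervals up to 0.15 and 0.14, and their transporter SLC35B2 by 0.08. CMAS, which activates sialic acid, differed by 0.11 (limma adjusted p = 0.269). SLC35A1 and GNPNAT1 were called with any 1 array left out, and GNE only without control replicate 2 (adjusted p up to 0.158 in limma without ETS2 siRNA replicate 3).

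Among core 1 and other chain transferases, 2 of 38 rose (5.26%, against 2.28% of all genes) and 1 fell (2.63%, the share of all genes also being 2.63%), with a median of 0.025. B3GALT5, which makes the type 1 chains that carry Lewis a antigens, stood at 7.65, 7.89 and 7.53 in control cells and at 8.13, 8.23 and 8.32 after ETS2 siRNA (0.54, SE 0.0906, limma adjusted p = 0.016). B4GALNT3, which adds N-acetylgalactosamine to chain ends, stood at 8.88, 8.96 and 8.78 and at 9.13, 9.19 and 9.19 (0.30, SE 0.0525, limma adjusted p = 0.019). B4GALT4, a galactosyltransferase that can extend sulfated N-acetylglucosamine, stood at 7.63, 7.77 and 7.64 and at 7.40, 7.43 and 7.51 (-0.23, SE 0.0525, limma adjusted p = 0.045).

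C1GALT1, the core 1 synthase, read -0.09 and its chaperone C1GALT1C1 0.22, neither called (limma adjusted p = 0.368 and 0.0754). Without single arrays, B3GALT5 was not called when control replicate 1 (adjusted p = 0.0648 in limma), ETS2 siRNA replicate 2 (0.0657) or ETS2 siRNA replicate 3 (0.0811) was left out. B4GALNT3 was called in limma only without control replicate 2 among these 6 fits (adjusted p up to 0.0908), and B4GALT4 in none of them (0.0789 to 0.153). With all 6 arrays, B4GALT4 also lost its call under the replicate block (limma adjusted p = 0.0742), median centring (0.0526), a further quantile normalisation (0.068), ribosomal centring (0.0752) and with all probes tested (0.122).

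Sialyltransferases and sulfotransferases outside the 6 families had 0 of 27 higher and 1 lower (3.7%, against 2.63% of all genes). This was HS6ST2, a heparan sulfate sulfotransferase, at 10.50, 10.64 and 10.62 in control cells and 10.30, 10.33 and 10.30 after ETS2 siRNA (-0.28, SE 0.0470, limma adjusted p = 0.0164). It was called only without control replicates 1 or 2 when arrays were left out, with adjusted p up to 0.0811 in limma. Sialidases and sulfatases had 0 of 13 changed in limma, against 4.91% of all genes. Of the 13, 2 had an unadjusted p under 0.05, as did 3408 of all 18417 genes. The lysosomal sialidase NEU1 at -0.17 (limma adjusted p = 0.0761) and the sulfatase ARSB at -0.16 (limma adjusted p = 0.167) came closest.

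Of 17 measured proteins that carry mucin-type chains, 2 fell (11.8%, against 2.63% of all genes) and 0 rose, with a median difference of -0.053. MUC4, a membrane mucin, stood at 10.77, 10.85 and 10.83 in control cells and at 10.48, 10.59 and 10.53 after ETS2 siRNA (-0.28, SE 0.0447, limma adjusted p = 0.0128). MUC20 stood at 9.39, 9.36 and 9.38 and at 9.04, 9.09 and 8.95 (-0.35, SE 0.0457, limma adjusted p = 0.00678). Neither gene's groups overlapped. MUC15 (-0.31, limma adjusted p = 0.0538), MUC1 (-0.13, 0.086) and MUC21 (-0.13, 0.1) were lower on every ETS2 siRNA array than on any control array and were not called, where 11.5% of all genes had such groups in this direction. MUC4 lost its call without control replicate 3 (adjusted p = 0.0533 in limma), ETS2 siRNA replicate 1 (0.0513) or ETS2 siRNA replicate 3 (0.0661).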

How the data were processed

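Total RNA of 6 cultures was hybridised as biotin-labelled cRNA to Affymetrix human gene arrays; each probe here is a summarised set. The authors deposited log2 expression levels, 1 column per array; RMA (background correction, normalisation between arrays, summary per probe) is named in the submitters' processing notes, with its version and settings, the annotation and the genome build not given in the sources used here. Array medians over all 33297 probes lay between 7.32 and 7.36, and values between 3.21 and 14.51. Arrays hold no read depth, and their number limits the precision.

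From these values, 19460 probes with 1 symbol were reduced to the brightest probe of 18417 genes; 1754 probes with several symbols and 12083 without one were not used in the gene-level fit. All 58 members matched a RefSeq record by gene identifier with the same symbol. Differences were fitted with limma 3.58.1 in R 4.3.3 (lmFit and eBayes without a trend, two-sided, Benjamini-Hochberg adjustment), and the procedure was tested on simulated data. Errors of differences are moderated standard errors and 95% intervals. The floor is the 95th percentile of the means of 341 olfactory receptor genes. Dim genes stayed in the test. The p-values measure the spread between transfections of 1 line.

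Values on every array are given for changed members and up to 4 further members above the floor per family with the largest differences; of each pathway list, up to 4 changed genes or the 2 of smallest p, with other genes of known role named after their values were seen. The members and lists were chosen with earlier results of these data known. Alternatives were the replicate block, 3 rescalings, 2 filters on dim genes, 2 ways to treat probes, 2 variance models, array weights and each array left out.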

Additional observations from a re-analysis of the deposited data

How the results depend on the processing

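The counts of changed members (6), changed pathway genes (9) and changed genes (904) depended on how many genes were tested and on the variance model. With only genes above the floor tested they were 10 members (8 higher, 2 lower), 17 pathway genes and 1397 genes. Above a stricter floor, the 99th percentile of olfactory receptor genes (7.27), they were 12 members (9 higher, 3 lower), 19 pathway genes and 1657 genes. Either filter kept a gene when the larger of its group means exceeded the floor. CHST4 passed the stricter floor only through its ETS2 siRNA mean of 7.71 (control 6.71), so its call there is no separate support. An intensity trend in eBayes gave 12 members (9 higher, 3 lower), 17 pathway genes and 1963 genes. With all probes tested the counts fell to 4 members (3 higher, 1 lower), 4 pathway genes and 322 genes, and with array weights they were 8 members, 17 pathway genes and 1480 genes. With the replicate block 5 members, 4 higher and 1 lower, and 604 genes were called, and CHST3 was lost (limma adjusted p = 0.0816). Equal replicate numbers were not taken as pairs, because no label ties them together. Same-numbered deviations from the group means correlated across genes at 0.177, 0.181 and 0.0352. Those of unequal numbers ran from -0.198 (control replicate 2, ETS2 siRNA replicate 1) to 0.0659 (control replicate 3, ETS2 siRNA replicate 1). ETS2 siRNA replicate 3 correlated best with control replicate 2 (0.0409). These values do not decide whether equal numbers share a batch. Without single arrays the counts ranged from 3 to 5 members, from 2 to 4 higher members, 1 lower member throughout, from 3 to 12 pathway genes and from 213 to 735 genes.

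The calls of CHST4, ST3GAL1 and ST3GAL5 held under all 17 alternatives, and that of GALNT5 under the 11 that kept all arrays. For CHST4 the stricter filter counts as no separate support, since only its ETS2 siRNA mean passed. GALNT3 was lost with all probes tested (limma adjusted p = 0.0888), and CHST3 there (0.108) and with ribosomal centring (0.0525). With all probes tested GNE (0.119), B3GALT5 (0.0674), B4GALNT3 (0.0696), HS6ST2 (0.061) and B4GALT4 (0.122) also lost their calls, B4GALT4 under 4 other alternatives too. Leaving out 1 array moved the differences of uncalled members by over 1.5 times, to 0.027 for CHST2 and 0.07 for CHST13 (control replicate 2), -0.047 for CHST5 (ETS2 siRNA replicate 2), 0.022 for ST3GAL2 and 0.06 for B3GNT3 (ETS2 siRNA replicate 1), 0.035 for B3GNT9 (control replicate 2) and -0.09 for ST6GALNAC5 (control replicate 2 or ETS2 siRNA replicate 2), beside those given above. ST3GAL3 and ST3GAL4, both uncalled and near 0, changed sign: ST3GAL3 to -0.005 without ETS2 siRNA replicate 2 (-0.005 to 0.09 over single arrays left out), and ST3GAL4 to 0.013 when centred on ribosomal protein genes and to 0.0033 without control replicate 2 or ETS2 siRNA replicate 3 (-0.042 to 0.0033 over single arrays left out). That centring moved the median of all genes from 0.00333 to 0.04. The cause of these shifts was not tested beyond the number of genes or arrays each alternative uses.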
